A study of Mus musculus with 6 samples.

Results

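Genes for chromatin remodelers, histone acetyltransferases and bromodomain readers were examined in P14 cytotoxic T cells that carry a phosphorylation-deficient form of HDAC7. Members were all genes of the annotation of the Affymetrix mouse genome array whose symbols start with Smarc or Arid, or with Chd, Brd or Kat followed by a digit, together with Ino80, Ep300, Crebbp and Actl6a. This gave 50 of the 18193 genes that a probe set with 1 gene symbol represents, each read on its probe set with the highest mean signal over the 6 arrays. P14 cells bear a transgenic T cell receptor for the gp33 peptide. Cells from spleens (strain C57Bl/6) received gp33 for 24 h, were infected with a retrovirus encoding the mutant joined to GFP, and sorted. The 3 GFP positive samples hold cells with the mutant. The 3 GFP negative samples, labelled control, hold cells of the infected cultures without GFP, so both groups share the activation, the retroviral exposure and the strain, and no empty-vector cells were analysed here. The labels call the samples biological replicates without naming animals or cultures, so p-values measure the spread between these samples.

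These proteins change how tightly DNA is wrapped and how its packaging is read. Remodelers of the SWI/SNF, ISWI, CHD and INO80 families use ATP to slide, evict or exchange nucleosomes, and SWI/SNF assembles in variants told apart by subunits such as ARID1A, ARID2 or BRD9. Acetyltransferases add acetyl groups to histones, which the class I deacetylases of the NuRD complex among others remove, and bromodomains bind the acetylated lysines. In T cells these machines are known to take part in opening and closing gene loci during activation and differentiation. HDAC7 is a class IIa deacetylase that represses transcription from the nucleus until its phosphorylation sends it to the cytoplasm.

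Values are log2 signals, and a change is the GFP positive mean minus the GFP negative mean on that scale, tested with limma across 13194 genes, with a threshold of 0.05 on the Benjamini-Hochberg adjusted p. The check of the labels came first: Hdac7 read 8.09, 8.18 and 8.17 in GFP positive samples, against 4.86, 4.83 and 4.81 in GFP negative samples, while a second Hdac7 probe set read 6.19 ± 0.02 and 6.74 ± 0.08 (SD, n = 3 each). The part of HDAC7 that the construct encodes is not stated in the labels, so a probe set outside that part would check nothing. Array medians lay between 1.63 and 1.72, and the TrpnX control probe sets averaged 0.60 to 0.72, which marks the background. The T cell genes Cd3d and Cd8a were bright in both groups, and 6 of 8 T cell identity markers passed as higher in GFP positive cells, while Gzmb passed as lower. Markers of other cell types summed to a log2 signal of at most 5.002 in any list in GFP positive samples and 5.101 in GFP negative samples, with B cell genes the highest. Of these markers, the macrophage gene Cd68 passed as higher (2.86 ± 0.14 in GFP positive and 1.76 ± 0.23 in GFP negative cells), 1 of 5 macrophage genes. The dendritic cell genes Flt3 (2.07 ± 0.19 and 2.54 ± 0.04) and Siglech (1.64 ± 0.07 and 1.86 ± 0.03) passed as lower (SD, n = 3 each), 2 of 3 in their list, whose sum was 3.09 to 3.31 in GFP positive and 3.49 to 3.55 in GFP negative samples. Their part in the results was not tested.

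In all, 27 members changed, most of them by less than 1 log2 unit and most upward. Of 48 members past the filter on dim genes, 23 were higher and 4 lower in GFP positive cells, and 21 did not pass. Of the rises that of the acetyltransferase gene Kat2b (PCAF) was the largest, at 2.30-fold, and the coactivator genes Crebbp and Ep300 were 1.62-fold and 1.49-fold higher. The CHD genes Chd9, Chd2, Chd6, Chd3, Chd4 and Chd8 and the SWI/SNF subunit genes Arid2, Smarcc2 and Arid1a also rose, and the falls were led by Arid5a (3.19-fold lower) and Chd7 (2.30-fold lower). In bulk samples, fewer cells of a type and less RNA per cell cannot be told apart.

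The array as a whole moved, so these counts stand beside a high background. Called genes made up 56.2% of the members, against 42.1% of all tested genes. Higher calls were 47.9% of the members against 24.6% of all genes, and lower calls 8.33% against 17.5%. The members are bright, with 46 of 50 above the median gene, and bright genes were called more often. Among genes past the 60th percentile of signal, 31 of 47 members (66.0%) were called, against 53.3% of genes, with 25 members higher and 6 lower (53.2% and 12.8%), against 33.1% and 20.2% of genes. The median change was 0.27 over members and -0.02 over all tested genes. How arrays were scaled moved the split over all genes, where higher genes made up 58.4% of the calls on the deposited scale, 49.0% once arrays were quantile normalized and 39.6% once they were centred on their medians. For members that share was 85.2%, 77.8% and 76.0%. Quantile normalization gave 21 members higher and 6 lower, against 20.1% and 21.0% of all genes. Under median centring 19 members were higher and 6 lower, against 19.0% and 28.9% of all genes, and the median change was 0.15 for members and -0.14 for all genes. In 34 of 48 members (70.8%) the groups did not overlap, against 53.8% of all genes. A change of at least 1 was called in 3 members (1 higher and 2 lower), 6.25% of them, against 5.33% of all genes (3.69% higher and 1.64% lower). With the replicate number as a block, 28 members (24 higher and 4 lower) were called, against 44.4% of all genes (25.5% and 18.8%). With 32 added to the linear signals, 29 members were called, against 39.3%. On the mean of each gene's probe sets, 21 of 48 members were called, against 5228 of 13194 genes. Of these members 17 were higher and 4 lower, against 2925 and 2303 genes. In that setting 6 member calls were lost and 0 gained, so the called shares of members and of all genes lay closer together. Of the 27 calls, 16 held in all 15 alternatives tried (13 higher and 3 lower).

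**Figure D1:**
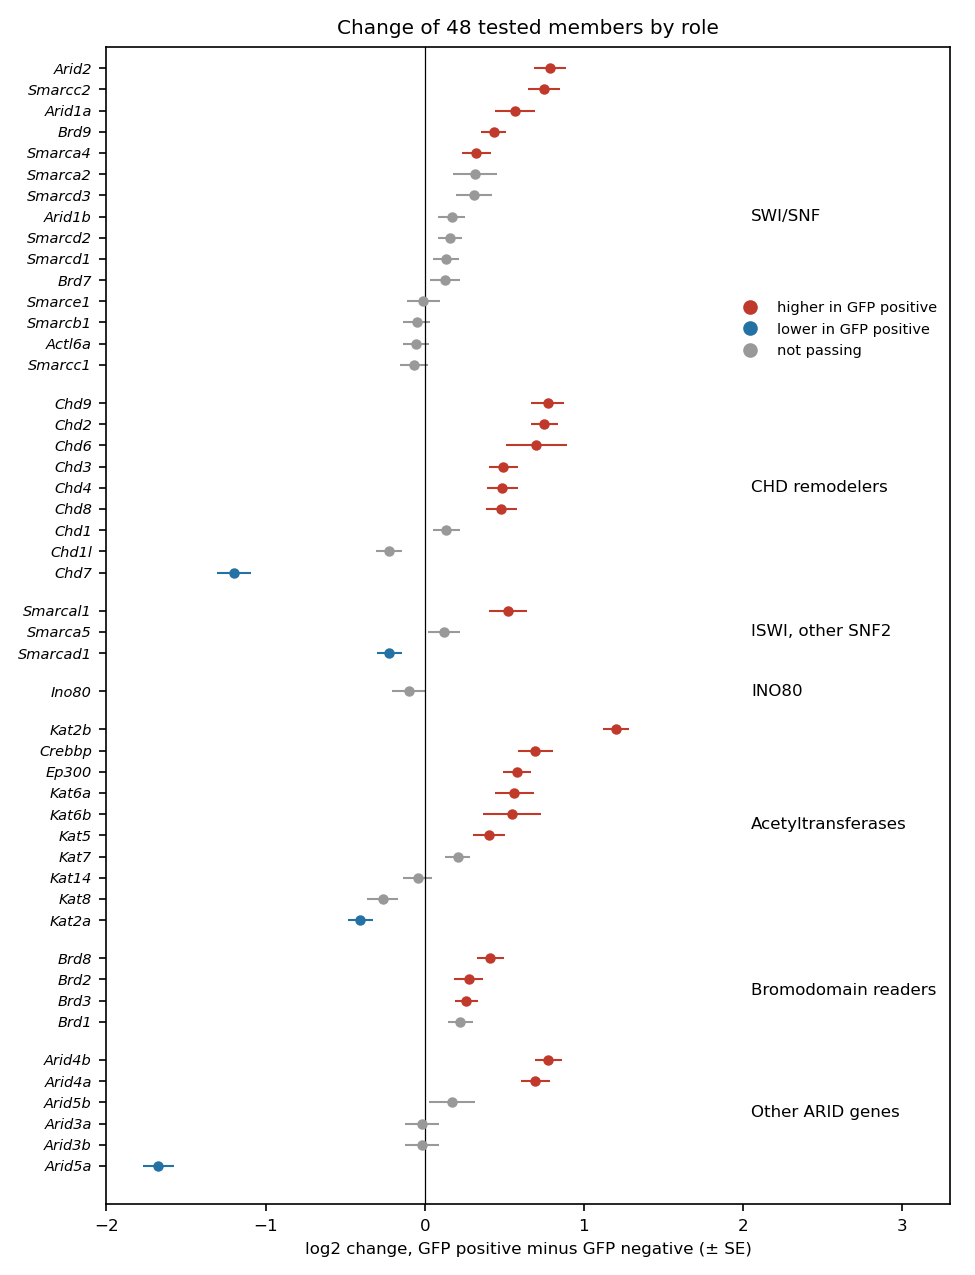
The log2 change of each of 48 tested members, GFP positive minus GFP negative, is plotted with its SE from limma, grouped by role and coloured by call. Most points lie between 0 and 1, while Arid5a and Chd7 lie far to the left and Kat2b furthest to the right.

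Promoters from RefSeq (GRCm38.p6) are shown for the members that moved furthest in each direction and stand in the sequence table, which held 40 of the 50 members. Each runs 5′ to 3′ on the gene's strand from 250 bases before the start to 50 after it. Capitals mark matches on either strand to the E-box CACGTG, the GC box GGGCGG or the CCAAT box CCAAT, and the MEF2 motif was also searched because class IIa deacetylases are known partners of MEF2 factors.
Kat2b, chr17:53566721-53567020, plus strand, higher in GFP positive cells: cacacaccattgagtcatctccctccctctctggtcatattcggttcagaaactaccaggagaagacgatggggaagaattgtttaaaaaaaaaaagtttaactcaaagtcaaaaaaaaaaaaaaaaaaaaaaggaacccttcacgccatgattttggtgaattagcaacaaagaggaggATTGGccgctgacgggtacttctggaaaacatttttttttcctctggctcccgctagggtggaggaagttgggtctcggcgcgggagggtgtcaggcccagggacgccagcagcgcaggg
Arid4b, chr13:14063534-14063833, plus strand, higher in GFP positive cells: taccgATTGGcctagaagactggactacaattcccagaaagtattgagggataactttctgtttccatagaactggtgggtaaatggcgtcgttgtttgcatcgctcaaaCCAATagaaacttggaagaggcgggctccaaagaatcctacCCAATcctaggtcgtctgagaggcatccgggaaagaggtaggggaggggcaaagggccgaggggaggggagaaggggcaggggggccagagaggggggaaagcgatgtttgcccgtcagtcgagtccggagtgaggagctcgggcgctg
Arid5a, chr1:36307483-36307782, plus strand, lower in GFP positive cells: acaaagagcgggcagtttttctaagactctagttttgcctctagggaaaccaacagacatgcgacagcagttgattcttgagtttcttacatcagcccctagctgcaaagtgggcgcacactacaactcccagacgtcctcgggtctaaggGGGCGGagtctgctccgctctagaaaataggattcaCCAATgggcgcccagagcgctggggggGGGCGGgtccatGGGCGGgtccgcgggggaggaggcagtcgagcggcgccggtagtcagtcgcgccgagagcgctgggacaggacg
Kat2a, chr11:100712418-100712717, minus strand, lower in GFP positive cells: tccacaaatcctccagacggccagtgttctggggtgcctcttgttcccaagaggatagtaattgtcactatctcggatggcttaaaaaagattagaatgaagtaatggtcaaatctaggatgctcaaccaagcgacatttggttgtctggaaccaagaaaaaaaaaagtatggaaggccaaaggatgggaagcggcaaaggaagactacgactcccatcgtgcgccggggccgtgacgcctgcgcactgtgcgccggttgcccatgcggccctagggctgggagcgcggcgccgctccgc
Kat2b has 2 promoters in the table, and the one at the annotated gene start is shown. Its window held 1 CCAAT box, at positions -70 to -66 from the start. The Arid4b window held 3 CCAAT boxes and no GC box, the Arid5a window 3 GC boxes, between -99 and -19, and 1 CCAAT box, and the Kat2a window held no match. Over all 53 member promoters, 75.5% held a GC box, against 46.2% of promoters of protein-coding genes, 30.2% held a CCAAT box, against 38.2%, and 1.89% an E-box, against 7.84%. The MEF2 motif was found in 0 of the 53 and in 2.74% of coding promoters. The motifs do not overlap one another in the printed windows, and a match is a description of letters only.

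Acetyltransferase genes moved in both directions, where 6 of 10 were called higher and Kat2a alone lower, with a median change of 0.47. Higher calls were 60% of them, against 24.6% of all genes and 33.1% of those past the 60th percentile. Kat2b, which encodes one of the 2 interchangeable acetyltransferases of the SAGA and ATAC coactivator complexes, read 7.61, 7.57 and 7.68 in GFP positive samples, against 6.34, 6.47 and 6.45 in GFP negative samples. The groups lay more than 1 unit apart, far beyond the spread within either, giving a change of 1.20 ± 0.08 (SE, limma adjusted p = 5.51e-05). Kat2a (GCN5), which encodes the alternative enzyme of the same complexes, went the other way, with 6.37, 6.55 and 6.49 in GFP positive samples and 6.86, 6.86 and 6.90 in GFP negative samples. Its change was -0.40 ± 0.08 (SE, limma adjusted p = 0.00498).

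The paired coactivator genes rose by like amounts. Crebbp, the acetyltransferase gene with the brightest probe set, had signals of 7.68, 7.59 and 7.93 in GFP positive samples, against 6.93, 7.03 and 7.15 in GFP negative samples, a change of 0.70 ± 0.11 (SE, limma adjusted p = 0.00168). Ep300 had 7.26, 7.43 and 7.31, against 6.79, 6.83 and 6.66, and changed by 0.58 ± 0.09 (limma adjusted p = 0.00138). For both genes each GFP positive sample lay above each GFP negative sample. The change of the Ep300 to Crebbp ratio within arrays was -0.12 ± 0.17 (SE), with an exact two-sided permutation p of 0.6.

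MYST-family acetyltransferases moved unevenly. Kat6a (MOZ), known for sustaining blood stem cells, read 5.88, 6.02 and 6.30 in GFP positive samples, against 5.61, 5.54 and 5.37 in GFP negative samples, without overlap (change 0.56 ± 0.12, limma adjusted p = 0.00774). A dim second probe set of Kat6a changed by -0.35, and the mean of both probe sets changed by 0.11 (limma adjusted p = 0.304). Its relative Kat6b (MORF) read 4.08, 3.96 and 3.72 in GFP positive samples and 3.12, 3.80 and 3.21 in GFP negative samples. One GFP negative sample overlapped the GFP positive range, and the rise of 0.55 ± 0.18 had a limma adjusted p of 0.0438. That call was lost without GFP positive 1 or 2 or GFP negative 1 or 3, with changes of 0.42 to 0.53, after either rescaling, and with 32 added in linear units (0.15, limma adjusted p = 0.0917).

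Kat5 (TIP60), the catalytic subunit of a complex that acetylates histones and acts in DNA repair, rose by 0.40 ± 0.10 (SE, limma adjusted p = 0.015). Its means were 6.51 ± 0.05 in GFP positive and 6.11 ± 0.17 in GFP negative cells (SD, n = 3 each), a second probe set rose by 0.36, and the call was lost without GFP positive 2 (0.37, limma adjusted p = 0.0513). Kat7 (HBO1), which acetylates histones at replication origins, changed by 0.21 ± 0.08 and did not pass (limma adjusted p = 0.0655), although its groups did not overlap. It passed as higher with 32 added (0.15, limma adjusted p = 0.0152), with a stricter filter and with a trended prior. Kat8 (MOF), known from dosage compensation in flies, changed by -0.26 ± 0.10, with a limma adjusted p of 0.0591 that became 0.0343 with the replicate number as a block. Kat8 also passed without GFP positive 2 (-0.35, limma adjusted p = 0.0251), after quantile normalization (-0.42) or median centring (-0.38), and with a stricter filter. Kat14, a subunit of ATAC, had a change of -0.04.

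Most CHD remodeler genes were higher in GFP positive cells. Of 9 tested genes, 6 were higher, 1 lower and 2 did not pass, with a median change of 0.49. The higher share of 66.7% stands beside 24.6% of all genes and 33.1% of those past the 60th percentile. Chd2, whose loss causes epilepsy in humans, read 6.89, 6.87 and 7.05 in GFP positive samples, against 6.22, 6.11 and 6.22 in GFP negative samples, a gap several times the spread within groups (change 0.75 ± 0.08, limma adjusted p = 0.000354). Chd9 rose by a like amount, with 4.963, 4.997 and 5.221 in GFP positive samples and 4.197, 4.240 and 4.430 in GFP negative samples (change 0.77 ± 0.10, limma adjusted p = 0.000796, and 0.34 with 32 added in linear units). Second probe sets past the filter changed by 0.53 for Chd2 and 0.41 for Chd9, with overlapping groups and no call. Chd8, a gene tied to autism in humans whose product restrains Wnt targets, rose by 0.48 ± 0.09 (limma adjusted p = 0.00463).

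The NuRD ATPase genes Chd3 and Chd4 rose by like amounts. Chd4, with the brightest CHD probe set, read 7.60, 7.68 and 7.77 in GFP positive samples, against 7.11, 7.35 and 7.13 in GFP negative samples, and changed by 0.49 ± 0.10 (SE, limma adjusted p = 0.00467). Chd3 changed by 0.49 ± 0.09 (limma adjusted p = 0.00379), with means of 6.26 ± 0.14 and 5.76 ± 0.04 in GFP positive and GFP negative cells (SD, n = 3 each). The 2 other Chd4 probe sets changed by 0.40 and 0.52 with a wider spread, and the mean of its probe sets did not pass (0.47, limma adjusted p = 0.061). The Chd3 to Chd4 ratio changed by 0.01 ± 0.12 (SE, exact permutation p = 0.7). Chd5, known mainly from neurons, lay under the filter at 1.23, 1.23 and 0.96 in GFP positive and 1.33, 1.33 and 1.40 in GFP negative samples.

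Chd7, mutated in the human CHARGE syndrome and known for activity at enhancers, was the CHD gene that fell. It read 4.11, 4.17 and 4.25 in GFP positive samples, against 5.32, 5.58 and 5.23 in GFP negative samples, so the groups were well apart. Its change was -1.20 ± 0.11 (SE, limma adjusted p = 0.00015), and a second probe set changed by -1.03. With 32 added in linear units, which damps dim signals, the fall was smaller (-0.56) and still passed. Chd6 was near background, at 3.20, 2.85 and 2.46 in GFP positive samples and 1.89, 2.37 and 2.15 in GFP negative samples. Its rise of 0.70 ± 0.19 (limma adjusted p = 0.0204) was lost with 32 added (0.11) and without GFP positive 2, GFP negative 1 or GFP negative 3, where the change was 0.58 to 0.71. Chd1, whose product reads methylated histone H3 at active genes, changed by 0.13 ± 0.08 and did not pass. Its other probe sets changed by 0.13, 0.41 and -0.20, and the one at 0.41 was called higher, so no single value describes Chd1. The PARP-activated remodeler gene Chd1l changed by -0.22 ± 0.08 (limma adjusted p = 0.0591), and passed as lower after quantile normalization (-0.32) or median centring (-0.34), with 32 added (-0.16), with a stricter filter and with a trended prior.

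SWI/SNF genes divided by subunit. Rises were called for 5 of 15, falls for 0, and 10 stayed under the threshold, with a median change of 0.17. An unadjusted p under 0.05 was reached by 6 of the 15, against 6699 of the 13194 tested genes. The called share of 33.3% lay under the 42.1% of all genes, and the higher share of 33.3% stands beside 24.6% of all genes and 33.1% of those past the 60th percentile. Arid2, which defines the PBAF variant, read 7.65, 7.82 and 7.95 in GFP positive samples, against 6.92, 7.09 and 7.06 in GFP negative samples, with no overlap (change 0.79 ± 0.10, limma adjusted p = 0.000616). Of its other probe sets, 2 rose by 0.52 and 0.72 and a dim one fell by 0.48, and the mean over all changed by 0.39. Arid1a, which defines the canonical BAF variant and is a frequent tumour suppressor in humans, read 8.37, 8.45 and 8.82 in GFP positive samples, against 7.89, 7.96 and 8.08 in GFP negative samples (change 0.57 ± 0.13, limma adjusted p = 0.00808). Its lower GFP positive samples still lay above the highest GFP negative one. Brd9, a marker subunit of the noncanonical complex, rose by 0.43 ± 0.08 (limma adjusted p = 0.00294).

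Core scaffold genes of SWI/SNF did not move as one. Smarcc2, which encodes a scaffold subunit, read 6.00, 6.18 and 6.22 in GFP positive samples, against 5.24, 5.44 and 5.48 in GFP negative samples, a change of 0.75 ± 0.10 (SE, limma adjusted p = 0.000764), or 0.47 with 32 added. Smarcc1, the related scaffold gene (BAF155), changed by -0.07 ± 0.09 (limma adjusted p = 0.547). The ATPase gene Smarca4 (BRG1) rose by 0.33 ± 0.09 (limma adjusted p = 0.0215), a call lost without GFP positive 3, GFP negative 1 or GFP negative 2 (0.27 to 0.33) after median centring (0.21), and as a mean of its probe sets (0.26). The alternative ATPase gene Smarca2 (BRM) changed by 0.32 ± 0.14 and did not pass (limma adjusted p = 0.107), but passed with the replicate number as a block (limma adjusted p = 0.0245) and without GFP positive 2 (0.45).

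The remaining SWI/SNF members stayed under the threshold. Smarcd2, with the brightest probe set of them, read 9.38, 9.24 and 9.29 in GFP positive samples, against 9.12, 9.15 and 9.16 in GFP negative samples, a small gap without overlap that did not pass (change 0.16 ± 0.08, limma adjusted p = 0.127). It passed with 32 added (0.15) and with a trended prior. The core subunit genes Smarcb1 (SNF5), Smarce1 and Actl6a had changes of -0.05, -0.01 and -0.06. Second probe sets of these 3 genes were called, at -0.36 for Smarcb1, 0.30 for Smarce1 and -0.37 for Actl6a, so no single value describes them. Smarcd1, Arid1b and Brd7 changed by 0.13, 0.17 and 0.13. Smarcd3, known from heart and muscle, was dim at 2.00 ± 0.14 in GFP positive and 1.69 ± 0.17 in GFP negative cells (SD, n = 3 each), with a change of 0.31 ± 0.11. It passed only without GFP positive 3 or GFP negative 1, alone (0.39 and 0.38) or together (0.46), and after quantile normalization (0.35).

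**Figure D2:**
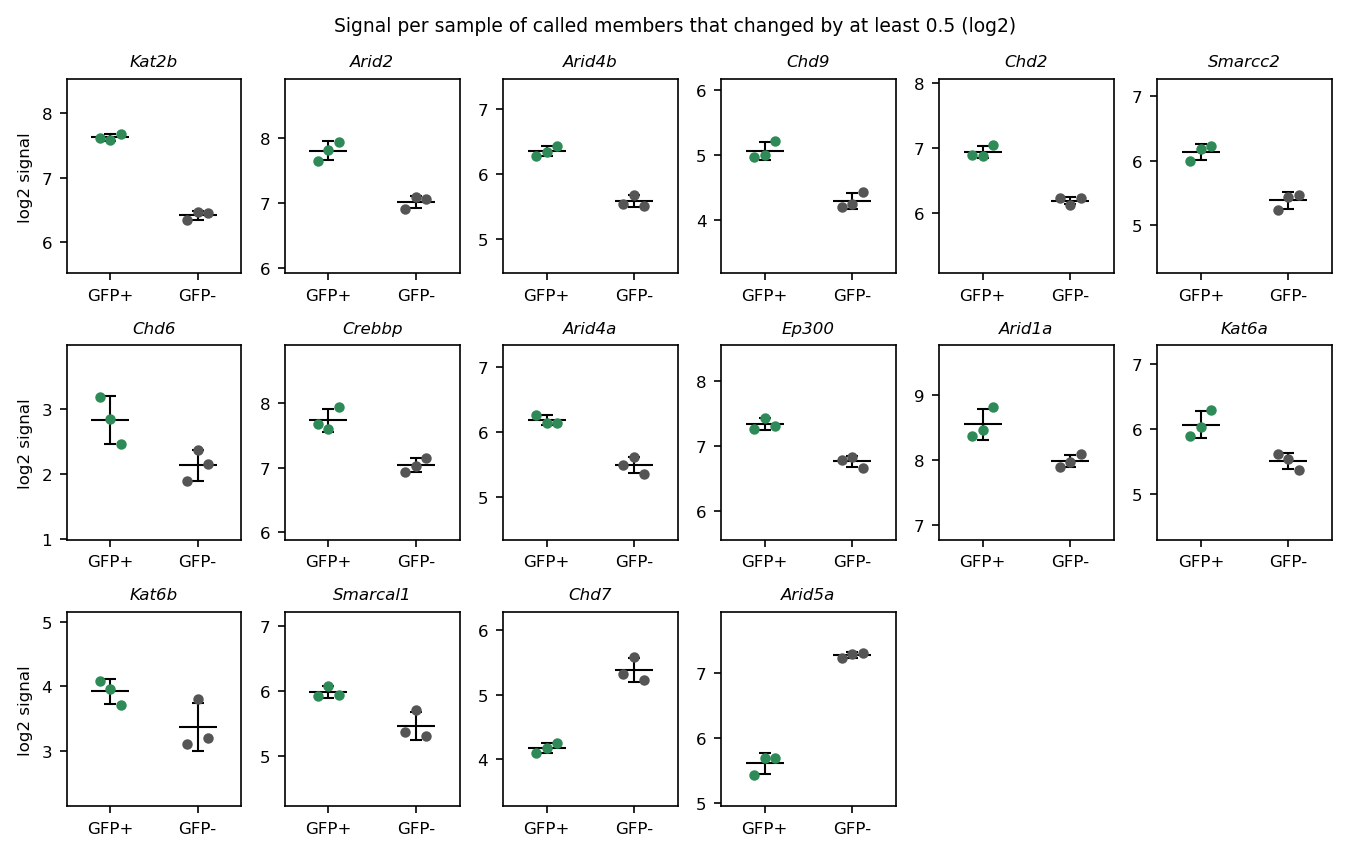
Each panel plots the log2 signal of 1 called member with a change of at least 0.5 in the 3 GFP positive samples (green) and the 3 GFP negative samples (grey), with the mean and SD. Every panel spans 3 log2 units. The groups are separate in each panel except Kat6b.

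ATPases of the ISWI group and its relatives showed 1 rise and 1 fall among 3 tested genes (66.7% called, against 42.1% of all genes). Smarca5 (SNF2H), the ISWI motor of lymphocytes read on the brightest probe set of all members, had 9.28, 9.59 and 9.33 in GFP positive samples, against 9.27, 9.34 and 9.24 in GFP negative samples, and the groups overlapped (change 0.12 ± 0.10, limma adjusted p = 0.362). Other Smarca5 probe sets past the filter changed by -0.10 and -0.17, without a call. Smarca1, the other ISWI motor, lay at background with 0.41, 0.59 and 0.73 in GFP positive and 0.52, 0.25 and 0.59 in GFP negative samples and was not tested. Smarcal1, an annealing helicase that protects stalled replication forks, read 5.92, 6.08 and 5.94 in GFP positive samples, against 5.36, 5.70 and 5.31 in GFP negative samples. It rose by 0.52 ± 0.12 (SE, limma adjusted p = 0.00855), while a dimmer probe set fell by 0.50 and the mean of its probe sets changed by 0.12 (limma adjusted p = 0.21). With 32 added the change was 0.32. Smarcad1, which acts in DNA end resection, fell by 0.22 at the edge of the threshold (limma adjusted p = 0.0469). That call was lost with the replicate block (limma adjusted p = 0.0518) and when any 1 sample was left out (-0.26 to -0.20), while quantile normalization gave -0.36, median centring -0.34 and 32 added -0.13. Ino80, the ATPase of its own complex, read 5.82, 5.89 and 5.54 in GFP positive and 5.80, 5.81 and 5.93 in GFP negative samples and did not pass.

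Changes of bromodomain readers were small. Of 4 tested, 3 were higher and 1 did not pass, and the median change was 0.27. That higher share (75%, on 4 genes only) stands beside 24.6% of all genes and 33.1% of those past the 60th percentile. Brd8, a subunit of the TIP60 complex, rose by 0.41 ± 0.08 on its brightest probe set (limma adjusted p = 0.00565), with 7.06 ± 0.06 in GFP positive and 6.65 ± 0.10 in GFP negative cells (SD, n = 3 each). Its 5 dimmer probe sets changed by 0.57 to 1.06, and 4 of them were called higher, so the mean of its probe sets changed by 0.76. Brd2, a BET family protein that binds acetylated histones, read 7.72, 7.74 and 7.87 in GFP positive samples, against 7.39, 7.60 and 7.51 in GFP negative samples, a narrow gap (change 0.28 ± 0.09, limma adjusted p = 0.0389). Brd3, another BET gene, rose by 0.26 ± 0.07 (limma adjusted p = 0.0225). Both BET calls were lost after quantile normalization (0.22 for Brd2, 0.11 for Brd3), after median centring (0.16 and 0.14), as means of their probe sets (0.23 and 0.21), and without GFP positive 2 or 3 or GFP negative 1 or 3, where Brd2 changed by 0.22 to 0.29 and Brd3 by 0.24 to 0.27. Brd1, a scaffold of acetyltransferase complexes, changed by 0.22 ± 0.08 (limma adjusted p = 0.0517), and passed as higher with 32 added (0.15), with a stricter filter and with a trended prior.

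The other ARID genes held the largest fall of all members and a pair that rose. Arid5a, whose product binds RNA and stabilises Il6 transcripts in macrophages of mice, read 5.43, 5.70 and 5.70 in GFP positive samples, against 7.23, 7.30 and 7.31 in GFP negative samples. The nearest samples of the groups were more than 1 unit apart, and the change was -1.67 ± 0.10 (SE, limma adjusted p = 3.72e-05), or -1.21 with 32 added. Arid5b, a partner of the demethylase PHF2, changed by 0.17 ± 0.15 and did not pass, except without GFP positive 1 (0.34, limma adjusted p = 0.028). Arid4a and Arid4b encode related subunits of the SIN3 corepressor complex, which carries class I deacetylases. Arid4a read 6.27, 6.14 and 6.13 in GFP positive samples, against 5.49, 5.61 and 5.36 in GFP negative samples (change 0.69 ± 0.09, limma adjusted p = 0.000764). Arid4b read 6.28, 6.35 and 6.43, against 5.54, 5.68 and 5.51 (change 0.78 ± 0.09, limma adjusted p = 0.000332), and its 3 other probe sets past the filter all rose, by 0.56 to 0.70. Neither gene's groups overlapped, and with 32 added the changes were 0.44 and 0.51. Arid3a and Arid3b, DNA-binding factors known from B cells and development, changed by -0.02 each.

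Related genes were compared through their ratio within each array, in which a scale factor of the array cancels. Of 20 listed pairs 17 had both genes tested. In 7 pairs the ratio did not overlap between groups, against 5 pairs on the means of probe sets. Each of the 7 had an exact two-sided permutation p of 0.1, or 0.24 after adjustment over the pairs. As 0.1 is the smallest that 3 samples against 3 allow, no pair could pass. The permutation moved samples without regard to replicate number. Within replicate numbers fewer arrangements exist, so the smallest p would be larger. The Kat2a to Kat2b ratio changed by -1.61 ± 0.08 (SE) and the Arid5a to Arid5b ratio by -1.84 ± 0.12. For Smarcc1 to Smarcc2 the change was -0.82 ± 0.08, for Chd1 to Chd2 -0.62 ± 0.11, for Brd7 to Brd9 -0.31 ± 0.06 and for Arid1a to Arid1b 0.40 ± 0.15. Chd8 to Chd9 changed by -0.29 ± 0.09, which became 0.03 with 32 added in linear units and -0.12 on the means of probe sets. With 32 added Smarcc1 to Smarcc2 changed by -0.53, and on the means of probe sets Chd1 to Chd2 changed by -0.52. These ratios show unequal change of 2 probe sets and say nothing of the levels of the 2 genes against each other. Ratios that moved least include Chd3 to Chd4, Brd2 to Brd3 (0.02 ± 0.06) and Smarca4 to Smarca2 (0.01 ± 0.18), where the SE leaves room for a difference.

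**Figure D3:**
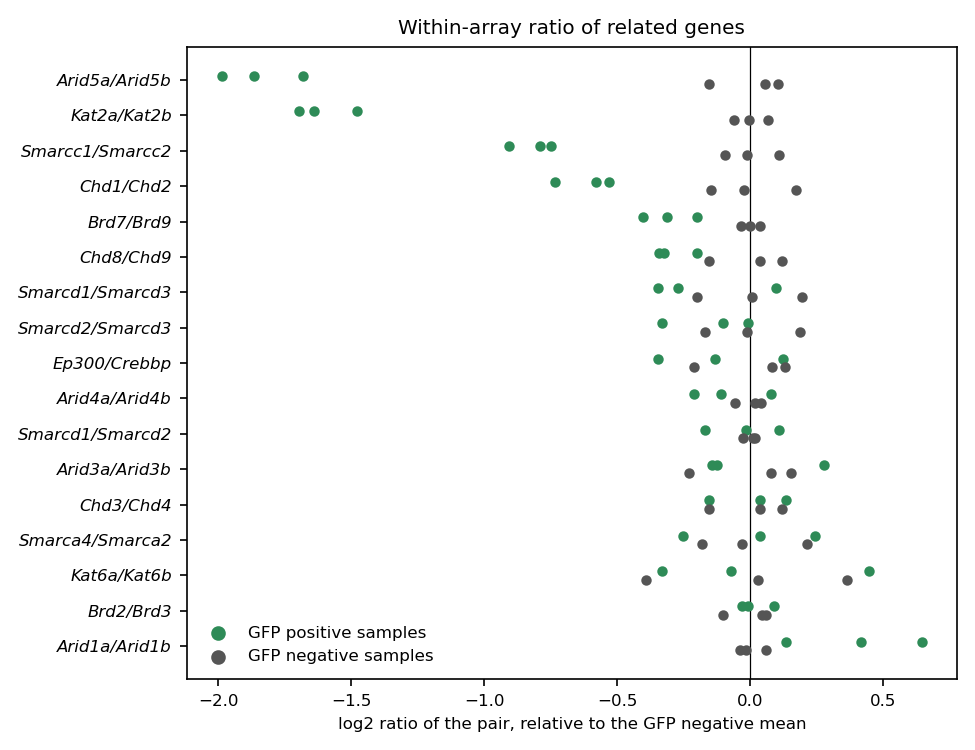
The log2 ratio of 2 related genes within each array, relative to its GFP negative mean, is plotted for 17 pairs in the 3 GFP positive samples (green) and the 3 GFP negative samples (grey). Green and grey points are far apart for Arid5a/Arid5b, Kat2a/Kat2b, Smarcc1/Smarcc2 and Chd1/Chd2 and mixed for most other pairs.

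Related genes that fall outside the symbol rule were counted from lists of 8 groups. Most lists hold genes that work in the same complexes. The other bromodomain genes and the other remodelers and acetyltransferases were listed by domain or enzyme class instead. Of 117 tested partner genes, 49 were higher and 10 lower (50.4% called, against 42.1% of all genes), with a median change of 0.19. Past the 60th percentile of signal, 54 of 116 partner genes were higher and 14 lower, against 33.1% and 20.2% of genes. Of the other bromodomain genes 17 of 21 were higher and 0 lower, with a median change of 0.52. Their higher share of 81% stands beside 24.6% of all genes and 33.1% of those past the 60th percentile. An unadjusted p under 0.05 was reached by 18 of the 21, and by 6699 of the 13194 tested genes. Baz2a, a bromodomain subunit of the nucleolar remodeling complex that silences ribosomal genes, rose by 0.87 ± 0.08 (SE, limma adjusted p = 0.000147), or 0.57 with 32 added. Zmynd8, a reader that links to NuRD, rose by 0.73 ± 0.09, and Brdt, a BET gene known from testis, by 1.15 ± 0.16 from a dim level (3.26 ± 0.25 in GFP positive and 2.12 ± 0.25 in GFP negative cells, SD, n = 3 each), or 0.20 with 32 added. The rest of the 17 were Sp110, Phip, Taf1, Trim24, Bptf, Brwd1, Brwd3, Baz1b, Zmynd11, Brpf1, Atad2, Atad2b, Baz2b and Brpf3, with rises of 0.34 to 0.84. Baz2b lost its call with the replicate number as a block, with 32 added (0.08) and after median centring (0.35). Brpf3 lost it with 32 added (0.16) and after median centring (0.49), and Atad2b after quantile normalization (0.26) and median centring (0.23). With 32 added the rises of Sp110, Trim24, Brwd1 and Brwd3 were 0.34, 0.46, 0.15 and 0.12. Pbrm1, Baz1a, Trim33 and Trim28 did not pass, at 0.18, 0.13, 0.06 and -0.03. Some of these genes also stand in the ISWI, SWI/SNF or MYST lists.

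**Figure D4:**
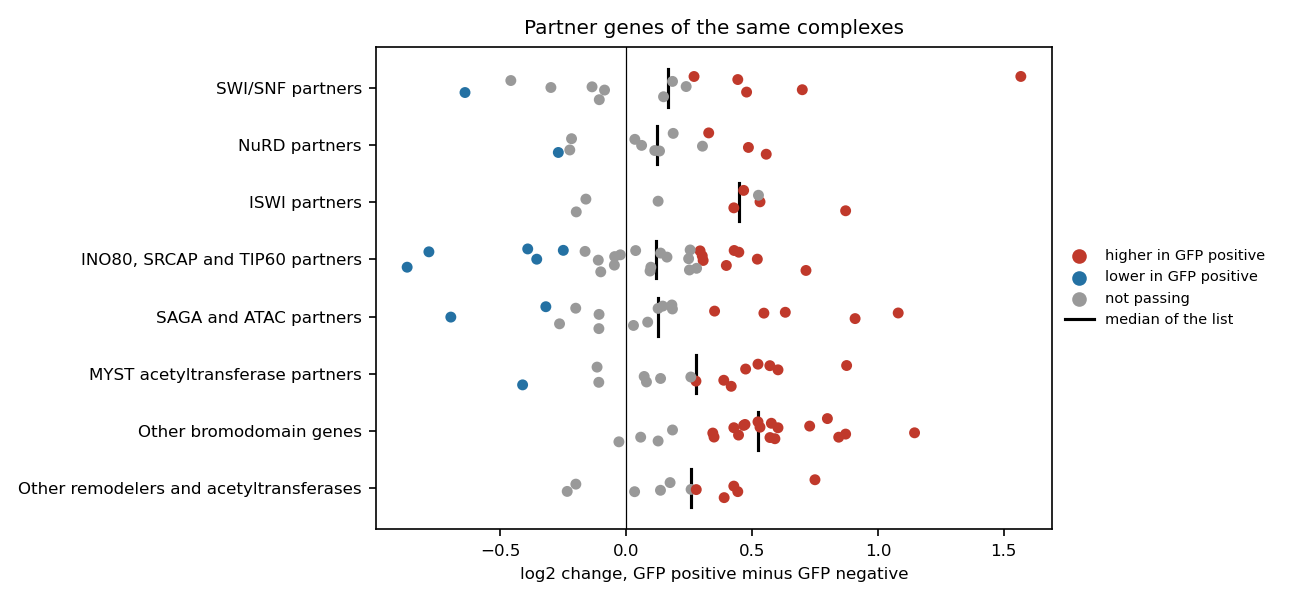
Each point is the log2 change of 1 partner gene, GFP positive minus GFP negative, by list, coloured by call, with the list median as a bar. The other bromodomain genes have no gene called lower, while the INO80, SRCAP and TIP60 list has 5.

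Partners of SWI/SNF numbered 5 higher, 1 lower and 8 not passing of 14, so the called share (42.9%) was near that of all genes (42.1%). Bcl11b, a zinc finger factor that keeps T cell identity and joins SWI/SNF, read 8.78, 8.91 and 9.19 in GFP positive samples, against 7.33, 7.26 and 7.59 in GFP negative samples, and rose 2.96-fold (change 1.57 ± 0.13, limma adjusted p = 0.000118). Ss18 rose by 0.48 (0.27 as a mean of its probe sets) and Bcl7c fell by 0.64, or by 0.26 as a mean of its probe sets. NuRD partners gave 3 higher, 1 lower and 8 not passing of 12, a called share of 33.3%, against 42.1% of all genes, and a higher share near the 24.6% of all genes. The deacetylase gene Hdac1 rose by 0.49 ± 0.08 (limma adjusted p = 0.00175) and its paralogue Hdac2 changed by -0.27 ± 0.09 (limma adjusted p = 0.0385), while Gatad2b and Mta3 rose by 0.56 and 0.33. Mta3 lost its call without GFP positive 2 (0.27) or GFP negative 3 (0.29) and after median centring (0.21), and Gatad2b as a mean of its probe sets (0.25).

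The INO80, SRCAP and TIP60 list of 28 held 8 rises, 5 falls and 15 genes under the threshold, 46.4% called against 42.1% of all genes. The helicase genes Ruvbl1 and Ruvbl2, whose products form a ring shared by these complexes, were the largest falls. Ruvbl1 read 6.82, 7.18 and 6.91 in GFP positive samples, against 7.81, 7.93 and 7.78 in GFP negative samples (change -0.87 ± 0.11, limma adjusted p = 0.000553). Ruvbl2 read 7.25, 7.48 and 7.32, against 8.03, 8.15 and 8.22 (change -0.78 ± 0.09, limma adjusted p = 0.000455). Neither pair of groups overlapped. Epc1, a scaffold of the TIP60 complex, went the other way with a rise of 0.71 ± 0.10 (0.39 as a mean of its probe sets).

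Of the SAGA and ATAC partners, which hold the enzymes encoded by Kat2a and Kat2b, 5 of 17 were called higher and 2 lower, 41.2% in all, near the 42.1% of all genes. Tada3, an adaptor shared by both complexes, rose by 0.91 ± 0.10 (SE, limma adjusted p = 0.0003) and Usp22, the SAGA deubiquitinase, by 0.63 ± 0.08 (0.34 as a mean of its probe sets). Atxn7 rose by 1.08 ± 0.16, which was 0.29 as a mean of its probe sets and 0.47 with 32 added. The adaptor genes of ATAC and SAGA, Tada2a and Tada2b, both fell, with changes of -0.70 ± 0.09 and -0.32 ± 0.09. With 32 added Tada2a changed by -0.37 and Tada3 by 0.59. MYST partners rose in 8 of 15 cases (53.3%, against 24.6% of all genes and 33.1% past the 60th percentile), with 1 fall. Those with the smallest p were Jade2 (0.88, and 0.53 as a mean of its probe sets), Msl1 (0.47) and Phf20 (0.42, and 0.25 without a call after quantile normalization). ISWI partners rose in 4 of 8 cases (50%, against 24.6% of all genes and 33.1% past the 60th percentile), with 0 falls. Of the 8, 5 had an unadjusted p under 0.05. Over all 13194 tested genes 6699 had such a p. Among the ISWI partners that rose were Bptf (0.53, and 0.34 as a mean of its probe sets) and Baz1b (0.43, and 0.23 without a call as a mean of its probe sets). Among the other remodelers and acetyltransferases 5 of 11 rose (45.5%, against 24.6% of all genes and 33.1% past the 60th percentile) and 0 fell. In this list 7 had an unadjusted p under 0.05, against 6699 of the 13194 tested genes. Those with the smallest p were the nuclear receptor coactivator gene Ncoa2 (0.75), Ttf2 (0.44) and Atrx (0.39, and 0.24 without a call as a mean of its probe sets).

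Several members have more than 1 probe set, which allows a check of direction within the same arrays. Of 129 probe sets of the members, 104 passed the filter, and 33 members had a second one. Among 34 further probe sets of called members, 31 changed in the same direction as the representative, 16 were called the same way and 3 the opposite way. Those 3 were the dim probe sets of Arid2, Kat6a and Smarcal1 given above, whose signals lay between 0.97 and 3.11 in the 6 arrays. Both Chd7 probe sets, the 3 Kat2a probe sets and the 4 Arid4b probe sets past the filter each went one way. For Kat2b, Ep300, Smarcc2, Chd3, Arid5a, Brd9, Chd6 and Kat6b a single probe set past the filter was available, so no such check exists.

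**Figure D5:**
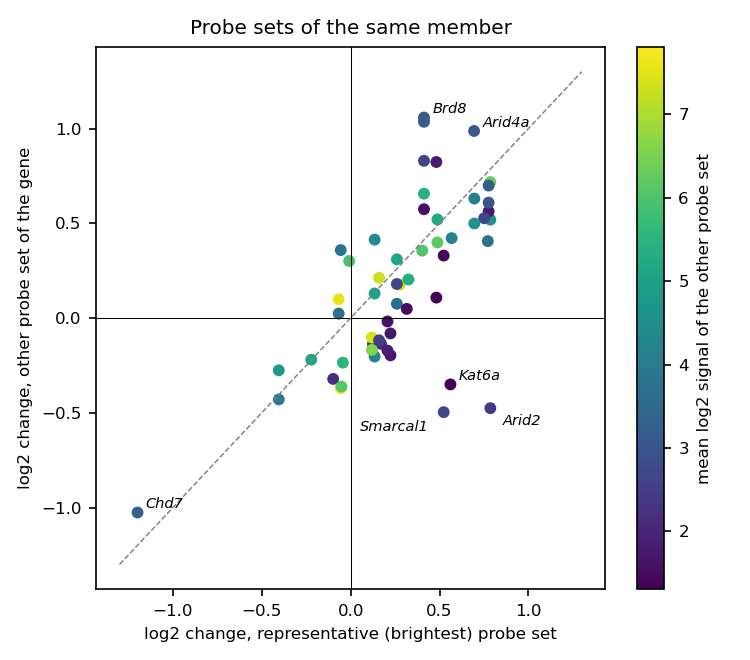
The log2 change of each further probe set past the filter is plotted against that of its gene's representative probe set, coloured by its mean log2 signal, with the line of equal change dashed. Most points lie in the upper right, and the 3 opposite calls (Arid2, Kat6a, Smarcal1) are dim.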

How the data were processed

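Total RNA of sorted cells was hybridised to 6 Affymetrix mouse genome arrays. The authors deposited log2 signals per probe set, made with Affymetrix Expression Console per the submitters' processing notes. The summarisation method is not stated in the labels, and arrays carry no read depth, so their number limits the precision. Probe sets with 1 gene symbol in the platform annotation were kept, 1 per gene by the highest mean. Genes above the 40th percentile of mean signal (log2 1.27) were tested with limma 3.58.1 in R 4.3.3 on group alone, as deposited without further scaling, and adjusted by Benjamini-Hochberg over 13194 genes at 0.05. The fit was tested on simulated data.

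The members, partner lists, pairs and marker lists were chosen with earlier results of these data known. Members were all described. Among partners, the 3 with the smallest p per list and those past 1 log2 unit are named by rule. The other bromodomain genes, Hdac2 and Tada2b were named after their values were seen, and not every called partner is named. Lists covered T cell identity, CD4 T, B, macrophage, dendritic, NK, neutrophil and erythroid cells. Samples with the same replicate number deviated together (correlations of 0.47, 0.35 and 0.25 between same-numbered samples). The replicate number was therefore used as a block in 1 alternative, while the main fit and the permutation of pair ratios left it out. Alternatives were other scalings, 32 added in linear units, filters, probe set means, a trended robust prior, a replicate block and leaving out each sample.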

Additional observations from a re-analysis of the deposited data

How the results depend on the processing

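Values of the tested members, Hdac7, the partner genes named by rule and the pairs were tallied under the alternatives. Of these values, 63 lost a call and 25 gained one. Partner genes named after their values were seen are not in this tally. Among the pairs 8 values moved and 1 was counted as reversed (Chd8 to Chd9, 0.030 with 32 added in linear units). The other 1167 were counted as the same, which for uncalled genes and for pairs did not require the same sign. Smarca4 to Smarca2 went from 0.01 to -0.11 without GFP positive 2, and Kat6a to Kat6b from 0.01 to -0.44 on the means of probe sets. Of the moved values, Arid4a to Arid4b went from -0.08 to 0.18 on the means of probe sets. The causes were not tested. Leaving out 1 sample gave 22 to 26 changed members, 4315 to 5604 changed genes (up to 3171 higher and up to 2433 lower), 7 or 8 separate pairs and 45 to 59 changed partner genes, with 6 to 8 partner genes lower. With GFP negative 1 and GFP positive 3 both left out, 19 members, 3325 genes (2074 higher and 1251 lower) and 38 partner genes (5 lower) were called with fewer samples in the fit. In that setting 11 pairs were separate, against 7 with all samples. Separation is reached more easily with fewer samples per group, so these counts of pairs cannot be compared. That setting also ended the calls of Chd4 (0.41), Chd8 (0.39), Kat5 (0.32) and Smarcal1 (0.50). Lower calls numbered 3819 genes under median centring, and lower partner genes 17 after quantile normalization and 20 after median centring. Fitted with the replicate number as a block, 28 members and 44.4% of all genes were called. Among members it ended the call of Smarcad1 and added Smarca2 and Kat8. Signals close to background limit Chd6, Kat6b and Smarcd3.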
